A study of Mus musculus with 2 samples.

Results

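Fc receptors bind the constant part of antibodies, and 7 genes of this group were followed through the cells of a treated mouse tumour: Fcgr1, Fcgr2b, Fcgr3, Fcgr4, Fcer1g, Fcrls and Fcgrt. They were taken by symbol, and all 7 were found among the 33696 genes of the deposited count matrix. Tumours of 4T1, a mouse mammary carcinoma line, were grown under the skin of mice, with the genotype label WT, and 2 single-cell RNA libraries were made from them. The treated library carries the treatment label PCN, in a series titled for an agent called PATCH, and the control library carries PBS, a salt solution given in place of PATCH. What PCN and PATCH consist of, the strain and age of the mice, and whether animals were pooled are not stated in the labels. Control counts were not analysed here, so every value below describes the treated library alone, and nothing compares treated with control tumours.

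In the mouse, the receptors encoded by Fcgr1, Fcgr3 and Fcgr4 are activating. Each binds IgG outside the cell and signals through the gamma chain encoded by Fcer1g, whose tyrosine motif recruits the kinase Syk and starts phagocytosis, oxidative burst and cytokine release. Fcgr2b encodes the inhibitory IgG receptor, whose own tyrosine motif recruits the lipid phosphatase encoded by Inpp5d and dampens those signals, so the balance of activating and inhibitory receptors on a myeloid cell sets its threshold for antibody-coated targets. Fcgrt encodes the heavy chain of the neonatal Fc receptor, which pairs with the B2m product inside the cell and returns IgG and albumin to the surface. Fcrls encodes a mouse Fc receptor-like protein best known as a marker of microglia.

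The 10835 kept cells of the treated library held 60652188 UMIs (unique molecular identifiers, counts of distinct captured transcripts), with a median of 3575 per cell. They were put into classes by the share of a cell's UMIs from a few defining genes, such as C1qa, C1qb, Csf1r, Apoe and Lyz2 for macrophage cells and S100a8, S100a9, Csf3r and G0s2 for neutrophil cells. This gave 4672 macrophage cells (43.1% of kept cells), 3518 neutrophil cells (32.5%), 238 T/NK cells, 325 fibroblasts, 322 tumour cells and 1760 cells that matched no rule. Depth differed among the classes, with a median of 7168 UMIs in macrophage cells and 1698 in neutrophil cells. Both myeloid classes were checked with markers outside the rule. The 5 macrophage markers used (Adgre1, Mrc1, Cd68, C1qc and Ms4a7) summed to 3619 CPM in macrophage cells and 329 CPM in neutrophil cells. Of these sums C1qc gave 1817 CPM in macrophage cells and 129 CPM in neutrophil cells. It is a C1q gene like C1qa and C1qb of the rule, so it is not a fully separate check. The 6 neutrophil markers used (Retnlg, Cxcr2, Mmp9, Il1r2, Hdc and Trem1) summed to 565 CPM in macrophage cells and 10813 CPM in neutrophil cells. No marker of either list was at 0 in either class. CPM here is the UMIs of a gene per 1000000 UMIs of the same class or cluster. The chemistry counts 3′ ends, so CPM is not divided by transcript length, and genes may differ in how well they are captured.

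The neutrophil class held a subset that has to be stated before the results. Of its cells, 283 also met the macrophage rule, and a cluster of 116 neutrophil cells, called the mixed cluster below, was led by Pid1, Ccl24, Plcb1, F13a1, Arg1 and H2-Ea when set against the other neutrophil cells. Its median depth was 6552 UMIs and its median doublet score 0.270, while the other neutrophil clusters had median scores of at most 0.0297. In the mixed cluster the 5 macrophage markers summed to 1705 CPM and the 6 neutrophil markers to 5176 CPM. The neutrophil levels of the 7 genes and their activating to inhibitory ratio are therefore given with and without it, and the other class-wide values of the receptors and of the pathway genes named below where leaving it out moved them by over 1.5 times or across the 2-fold limit. There was 1 library per group and thus no replicate and no test. Intervals are exact and at the 95% level, and they cover counting error only. Fcgr2b, Fcgr3 and Fcgr4 are close paralogs, and the handling of reads shared between them was not recorded in the sources used here.

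The 7 genes divided into those found in both myeloid classes and those found mainly in macrophage cells. Fcgr3, Fcgr4 and Fcer1g were at similar or higher CPM in neutrophil cells, while Fcgr1, Fcgr2b, Fcrls and Fcgrt were between 6.27-fold and 12.8-fold higher in macrophage cells, or between 9.95-fold and 28.4-fold without the mixed cluster. Thus 4 of 7 were at least 2-fold higher in macrophage cells and 0 at least 2-fold lower. Over the 12431 genes with at least 50 UMIs in the 2 classes together, 53.2% were at least 2-fold higher in macrophage cells and 11.3% at least 2-fold lower. The share among the 7 genes is thus close to that of all genes.

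**Figure D1:**
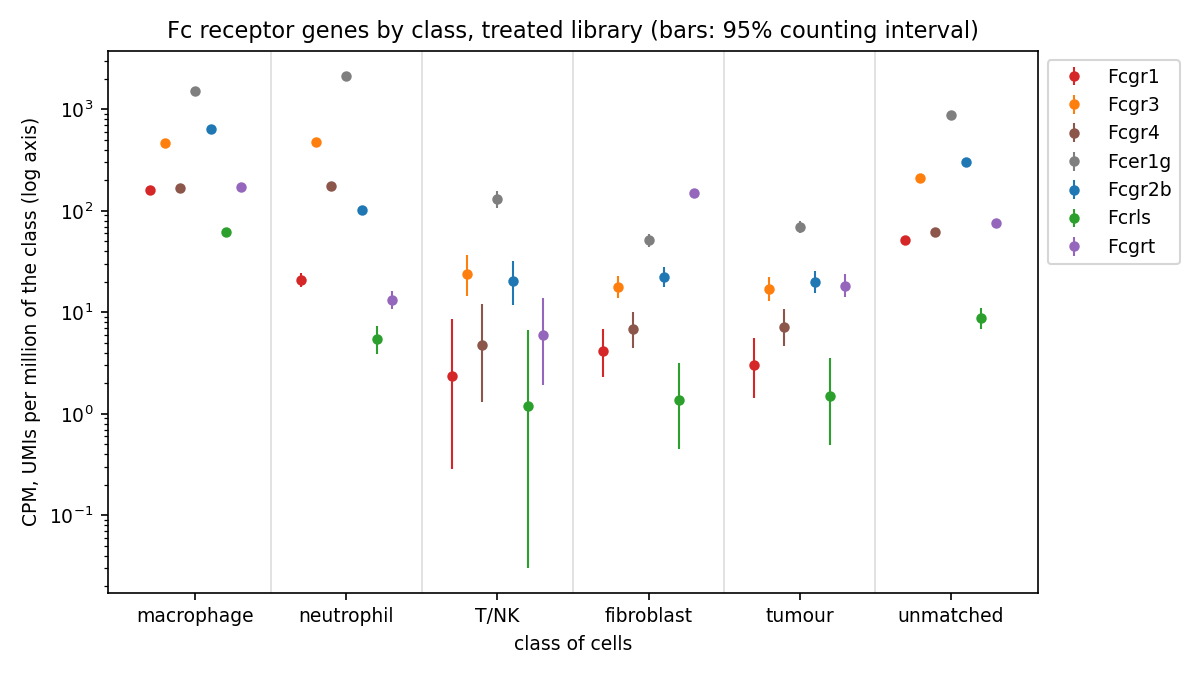
CPM of each of the 7 genes (colours) in each class of cells, on a log axis, with 95% counting intervals as bars. Fcer1g is the highest of the 7 in every class but fibroblasts, where Fcgrt is the highest, at 149.9 CPM.

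Among the activating receptors, Fcgr1, the high-affinity IgG receptor, was at 161 CPM in macrophage cells (5984 UMIs; interval 157 to 166) and 20.7 CPM in neutrophil cells (156 UMIs; 17.6 to 24.2). The ratio was 7.79 (6.64 to 9.19). Without the mixed cluster the neutrophil level was 5.69 CPM (4.03 to 7.81), so 118 of the 156 neutrophil UMIs of Fcgr1 lay in 116 cells. Fcgr3, a lower-affinity activating receptor, was at 468 CPM in macrophage cells and 473 CPM in neutrophil cells, and the interval of its ratio spanned 1 (0.990; 0.955 to 1.03). Fcgr4, which binds IgG2a and IgG2b in the mouse, was at 168 CPM in macrophage cells and 175 CPM in neutrophil cells, with a ratio of 0.958 (0.903 to 1.02). Leaving out the mixed cluster moved the neutrophil levels of Fcgr3 and Fcgr4 only to 476 and 177 CPM.

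The shared gamma chain gene Fcer1g was the most abundant of the 7, at 1509 CPM in macrophage cells and 2128 CPM in neutrophil cells, a ratio of 0.709 (0.697 to 0.722). Set against the summed activating receptors, there were 1.89 Fcer1g UMIs per Fcgr1, Fcgr3 or Fcgr4 UMI in macrophage cells and 3.18 in neutrophil cells. Of these activating receptor UMIs, Fcgr3 made up 58.7% in macrophage cells and 70.7% in neutrophil cells. Fcgr4 made up 21.1% in macrophage cells and 26.2% in neutrophil cells. The share of Fcgr1 differed most, at 20.2% in macrophage cells and 3.10% in neutrophil cells, or 0.865% in neutrophil cells without the mixed cluster.

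The inhibitory receptor gene Fcgr2b was at 636 CPM in macrophage cells (628 to 644) and 101 CPM in neutrophil cells (94.3 to 109), a ratio of 6.27. In macrophage cells it was thus above each activating receptor gene. Without the mixed cluster the neutrophil level was 63.9 CPM (58.0 to 70.3), which is 10.1% of the macrophage level. Fcrls was at 61.2 CPM in macrophage cells and 5.45 CPM in neutrophil cells, a ratio of 11.2 (8.26 to 15.7). Fcgrt was at 170.3 CPM in macrophage cells and 13.3 CPM in neutrophil cells, a ratio of 12.8 (10.5 to 15.8). Without the mixed cluster, Fcrls stood at 2.69 CPM and Fcgrt at 7.49 CPM in neutrophil cells.

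CPM is relative to the RNA captured in a class, and macrophage cells yielded several times more UMIs. Per cell, Fcgr3 had 3.71 UMIs in macrophage cells and 1.01 in neutrophil cells, and Fcgr4 had 1.33 in macrophage cells and 0.375 in neutrophil cells. Fcer1g had 12.0 UMIs per macrophage cell and 4.55 per neutrophil cell. On this scale all 7 genes were higher in macrophage cells, by 2.63-fold for Fcer1g, 3.56-fold for Fcgr4, 3.67-fold for Fcgr3, 23.3-fold for Fcgr2b, 28.9-fold for Fcgr1, 41.7-fold for Fcrls and 47.6-fold for Fcgrt. The per-cell ratio without the mixed cluster was 40.2 for Fcgr2b, 115 for Fcgr1, 91.9 for Fcrls and 92.0 for Fcgrt. The depth per cell moves with these values, and its part in them was not tested. The highest count in any macrophage cell was 77 UMIs for Fcer1g, 38 for Fcgr2b, 32 for Fcgr4, 23 for Fcgr3 and 18 for Fcgr1.

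Macrophage RNA can be carried in the fluid of every droplet, and the C1q genes (C1qa, C1qb and C1qc), which macrophages make, give a rough yardstick for it. C1qa and C1qb are also in the rule that made the macrophage class, while C1qc and the 7 genes are not. The part of that rule in the percentages below was not tested. Their summed level outside macrophage cells was 3.55% of the macrophage level in neutrophil cells without the mixed cluster, 2.53% in T/NK cells, 2.23% in fibroblasts and 3.55% in tumour cells. In those neutrophil cells, Fcgr1 was at 3.53% of its macrophage level, Fcgrt at 4.39% and Fcrls at 4.40%, values close to that of the C1q genes. Fcgr2b stood above the yardstick in the same neutrophil cells, at 10.1%, and Fcgr3, Fcgr4 and Fcer1g were at 102%, 105% and 146% of the macrophage level. In tumour cells 6 of the 7 genes were at 1.86% to 4.60% of the macrophage level, beside 3.55% for C1q.

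Among T/NK cells, fibroblasts and tumour cells, the 3 highest percentages of the macrophage level were those of Fcgrt in fibroblasts, Fcgrt in tumour cells and Fcer1g in T/NK cells. Fcgrt was at 149.9 CPM in fibroblasts (138 to 163), which is 88.0% of its macrophage level (80.5 to 96.1%), while the other 6 genes were at 2.24% to 4.08% there, beside 2.23% for C1q. In tumour cells Fcgrt was at 18.3 CPM, or 10.8% of its macrophage level (8.22 to 13.8%). In the T/NK class, Fcer1g was at 129.6 CPM (106 to 156), or 8.59% of its macrophage level. Of its 109 UMIs there, 64 lay in the 20 cells with a UMI of an NK gene (Ncr1, Klrb1c or Klre1). Fcer1g, which also carries the signal of NK receptors, was at 583 CPM (449 to 744) in those 20 cells and 61.6 CPM (44.9 to 82.4) in the other 218. Tyrobp, a related signalling adaptor of NK and myeloid cells, was at 555 CPM in those 20 cells and 57.5 CPM in the other 218. Fcgr3, the Fc receptor of mouse NK cells, had 4 UMIs in the 20 cells (36.4 CPM; 9.92 to 93.2) and 21.9 CPM in the other 218, which does not separate them at this depth. This split was chosen after the data were seen.

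The share of cells with a UMI was compared after each cell was thinned to 1000 UMIs, which left 4552 macrophage cells and 2987 neutrophil cells and dropped 120 shallower macrophage cells and 531 shallower neutrophil cells. Fcer1g was detected in 72.3% of macrophage cells (71.0 to 73.6%) and 85.3% of neutrophil cells (84.0 to 86.6%). Fcgr3 was detected in 34.2% of macrophage cells and 35.4% of neutrophil cells, and Fcgr4 in 13.1% of macrophage cells and 15.4% of neutrophil cells. For Fcgr2b the shares were 41.1% of macrophage cells (39.6 to 42.5%) and 6.63% of neutrophil cells (5.76 to 7.58%), and for Fcgr1 they were 14.0% of macrophage cells and 1.14% of neutrophil cells, or 0.697% (0.426 to 1.07%) of neutrophil cells without the mixed cluster. Fcgrt was detected in 681 of the 4552 macrophage cells and 29 of the 2987 neutrophil cells (0.971%), and Fcrls in 4.55% of macrophage cells and 0.268% of neutrophil cells.

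**Figure D2:**
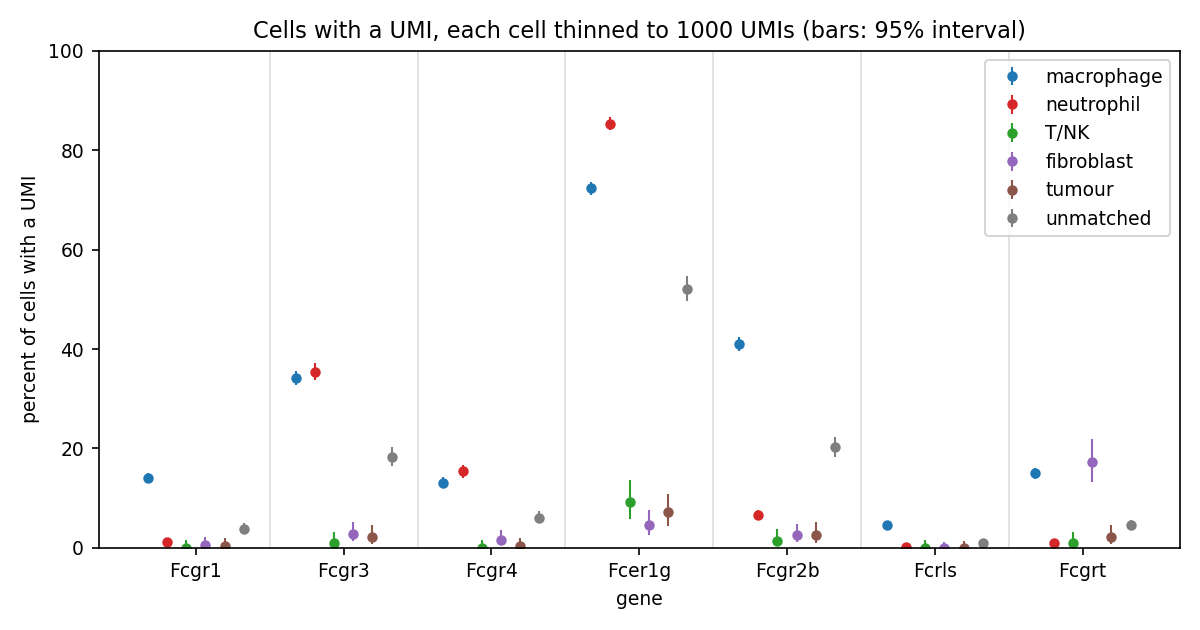
Percent of cells with at least 1 UMI of each gene after thinning every cell to 1000 UMIs, by class (colours), with exact binomial intervals as bars. Fcgr3, Fcgr4 and Fcer1g are seen in similar or higher shares of neutrophil than of macrophage cells, and Fcgrt is seen in 17.2% of fibroblasts.

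The 278 thinned tumour cells, which should lack leukocyte receptors, were taken as the background of these shares for genes other than Fcgrt. It was 7.19% for Fcer1g, 2.52% for Fcgr2b, 2.16% for Fcgr3, and 0.360% for Fcgr1 and for Fcgr4. Some cells of the tumour class lay in clusters led by myeloid genes, with 11 in that led by Mrc1 and Cd163. A further 6 lay in the cluster led by Hdc, Il1r2 and Csf3r. Single tumour cells held up to 21 Fcer1g UMIs and 11 Fcgr2b UMIs before thinning. The part of such cells in this background was not tested. Fcrls was in 0 of the 278 cells, which allows a share of up to 1.32%. Tumour cells had a median of 11176 UMIs before thinning. The neutrophil share of Fcrls, from 8 cells, lay under that limit, so it was not separable from the background at this depth. The intervals of the Fcgr1 share overlapped (0.790 to 1.59% in neutrophil cells and 0.00911 to 1.99% in tumour cells). Fcgrt was detected in 2.16% of tumour cells, which is not read as a background because Fcgrt in tumour cells stood at a higher percentage of its macrophage level than C1q did. As sequenced, without thinning, Fcgr2b was seen in 82.8% of macrophage cells and 12.1% of neutrophil cells, and Fcgr3 in 82.5% of macrophage cells and 52.1% of neutrophil cells.

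The ratio of activating to inhibitory UMIs, Fcgr1 plus Fcgr3 plus Fcgr4 over Fcgr2b, was 1.25 in macrophage cells (29572 over 23582 UMIs; interval 1.23 to 1.28) and 6.60 in neutrophil cells (5034 over 763 UMIs; 6.11 to 7.13). Without the mixed cluster the neutrophil ratio was 10.3 (9.32 to 11.4). Over Fcgr2b alone, Fcgr3 gave 0.736 in macrophage cells and 4.66 in neutrophil cells, Fcgr4 gave 0.264 in macrophage cells and 1.73 in neutrophil cells, and Fcgr1 gave 0.254 in macrophage cells and 0.204 in neutrophil cells. With the mixed cluster left out, these neutrophil values were 7.44 for Fcgr3, 2.76 for Fcgr4 and 0.0890 for Fcgr1. The neutrophil ratio was thus the higher for Fcgr3 and for Fcgr4, and not for Fcgr1. In tumour cells and fibroblasts, where the receptors are near the background, the ratios were 1.36 (0.980 to 1.89) and 1.28 (0.950 to 1.73), intervals that include the macrophage value.

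Within single thinned cells the sides were divided in the same way. Of macrophage cells, 27.1% had only activating receptor UMIs, 21.7% had UMIs of both sides, 19.3% had only Fcgr2b and 31.9% had neither. Of neutrophil cells, 42.5% had only activating receptor UMIs, 3.52% both, 3.11% only Fcgr2b and 50.9% neither. In macrophage cells Fcgr1 and Fcgr4 were seen together in 2.64% of cells, where the product of their shares is 1.84%, and Fcgr3 and Fcgr4 in 5.87%, with a product of 4.49%. Fcgr1 and Fcgr2b were together in 5.56% with a product of 5.76%. In neutrophil cells Fcgr3 and Fcgr4 were together in 5.49%, with a product of 5.44%. With so few UMIs per cell these values are given as a description.

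The macrophage class was divided into clusters, with the 7 genes and the wider Fc pathway list left out of the genes used for clustering. In all, 10 clusters had at least 50 cells. Each of the 7 genes varied at least 2-fold between its highest and lowest macrophage cluster, as did 58.6% of the 2792 genes at a similar or higher level. The ratio of highest to lowest was 25.0 for Fcrls, 15.5 for Fcgr4, 9.50 for Fcgrt, 3.79 for Fcgr1, 3.55 for Fcgr2b, 2.11 for Fcer1g and 2.03 for Fcgr3, where the median of those genes was 2.17. Thus Fcgr3 and Fcer1g were the steadiest of the 7 across macrophage clusters and Fcrls and Fcgr4 the least steady. With a finer clustering into 13 clusters the ratio was 54.0 for Fcrls, 26.1 for Fcgr4 and 6.30 for Fcgr1, with Fcgr3 (2.65) and Fcer1g (2.40) again the lowest.

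**Figure D3:**
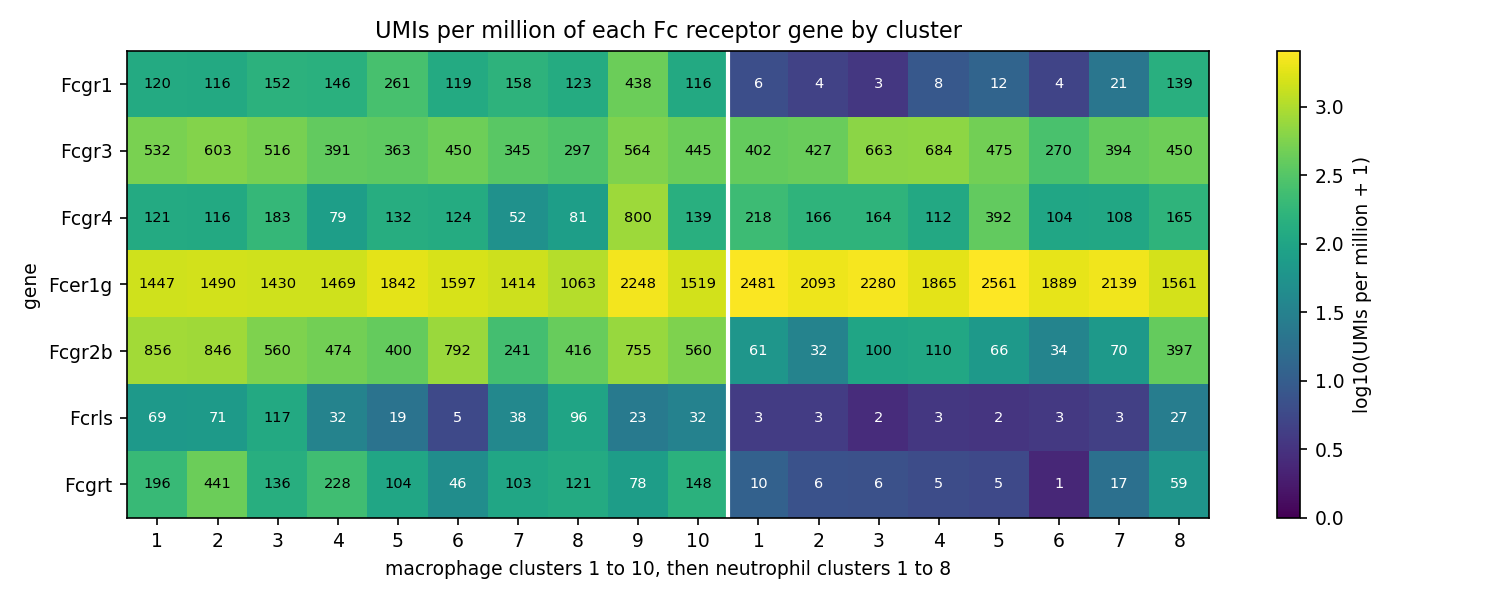
CPM of each gene in macrophage clusters 1 to 10 (left of the white line) and neutrophil clusters 1 to 8 (right), printed in each cell and coloured by log10(CPM + 1). Fcgr4 peaks at 800.0 CPM in macrophage cluster 9, and Fcgr1, Fcgr2b, Fcrls and Fcgrt are low in neutrophil clusters other than the mixed cluster 8.

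Fcgr4 was highest in macrophage cluster 9, a cluster of 293 cells led by Ly6a, Cxcl9, Rsad2, Cxcl11 and Cxcl10, genes induced by interferons. There it was at 800.0 CPM (2017 UMIs; 765 to 836), against 122 CPM in the other macrophage cells, a 6.56-fold difference (6.22 to 6.92). In the other 9 clusters Fcgr4 lay between 51.6 and 183 CPM, so none came near. Fcgr1 was at 438 CPM in cluster 9 and 141 CPM in the other macrophage cells, 3.10-fold higher (2.90 to 3.31), and Fcer1g was at 2248 CPM in cluster 9 and 1455 CPM in the other macrophage cells, 1.55-fold higher. Fcgr3 and Fcgr2b differed less, with Fcgr3 1.22-fold the level of the others (1.16 to 1.29) and Fcgr2b at 755 CPM in cluster 9 and 627 CPM in the others, while Fcgrt and Fcrls were lower in cluster 9, at 78.5 and 23.4 CPM, 0.444 and 0.366 times the level in the other macrophage cells. Thus 2 of the 7 genes were at least 2-fold higher, where 4.96% of 11965 genes were. The median log2 ratio over those genes was -0.17. The 5 monocyte markers used (Ly6c2, Ccr2, Vcan, Chil3 and Plac8) also stood high in cluster 9, with a sum of 3649 CPM. They summed to 3929 CPM in the monocyte-like cluster 5, where Fcgr4 was at 132 CPM and Fcgr1 at 261 CPM, and to between 329 and 1171 CPM in the other 8 clusters. Their part in the cluster 9 levels was not tested.

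Neutrophils held a counterpart. Neutrophil cluster 5 (240 cells) was led by Rsad2, Ifi47, Gbp2b and Gbp5, also interferon-induced genes, and Fcgr4 was there at 392 CPM (335 to 457), against 162 CPM in the other neutrophil cells, a 2.42-fold difference (2.04 to 2.85). Of the 7 genes, 1 was at least 2-fold higher in it, where 3.53% of 6854 genes were. Fcer1g was at 2561 CPM in cluster 5 and 2102 CPM in the other neutrophil cells (1.22-fold), and Fcgr3 was at 475 CPM in cluster 5 and 473 CPM in the others. Fcgr1 had 5 UMIs in the cluster, at 11.7 CPM (3.82 to 27.4), where the neutrophil cells without the mixed cluster stood at 5.69 CPM.

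The same genes were then followed along the share that 6 interferon-induced genes (Rsad2, Ifit1, Ifit3, Cxcl10, Cxcl9 and Isg15) took of a cell's UMIs. Cells with at least 1000 UMIs were used, a division chosen with earlier results of these data known. Rsad2, Cxcl9 and Cxcl10 also lead macrophage cluster 9, and Rsad2 and Cxcl10 are among the leading genes of neutrophil cluster 5. The bins are thus not independent of those clusters, and the cells they share were not counted. Fcgr4 was at 110.1 CPM in the 3206 macrophage cells with no UMI of the 6 genes. It was at 141, 237 and 508 CPM in 3 bins of rising level with 449, 449 and 448 cells. Fcgr1 was at 126 CPM in the cells with none and at 143, 218 and 357 CPM in the 3 bins. Both were thus higher at each step, and in the middle bin the interferon-induced genes averaged 259 CPM, far below the 2539.8 CPM of the high bin. Fcer1g was also higher at each step, by a smaller factor, at 1422, 1459, 1659 and 1994 CPM. Fcgr2b showed no such order, with 649, 602, 591 and 649 CPM, nor did Fcgr3, with 464, 474, 441 and 516 CPM. The activating to inhibitory ratio was 1.08, 1.26, 1.52 and 2.13 along the same bins.

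In neutrophil cells without the mixed cluster, Fcgr4 was at 160.0 CPM with none of those UMIs and at 173, 192 and 309.6 CPM in the 3 bins, with intervals of 148 to 172 CPM in the cells with none and 263 to 362 CPM in the high bin. Fcer1g was at 2113 CPM in the cells with none and at 2216, 2559.5 and 2593 CPM in the 3 bins. Fcgr1 was at 4.93, 3.78, 8.07 and 9.86 CPM along the same bins, from only 22, 3, 4 and 5 UMIs (interval 3.20 to 23.0 CPM in the high bin), so a difference in Fcgr1 was not detectable at this depth. The median depth of the bins differed and did not follow their order: 6604, 11800.0, 6582 and 7725 UMIs in macrophage cells and 1794, 2459.5, 1538 and 1670.0 in neutrophil cells.

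**Figure D4:**
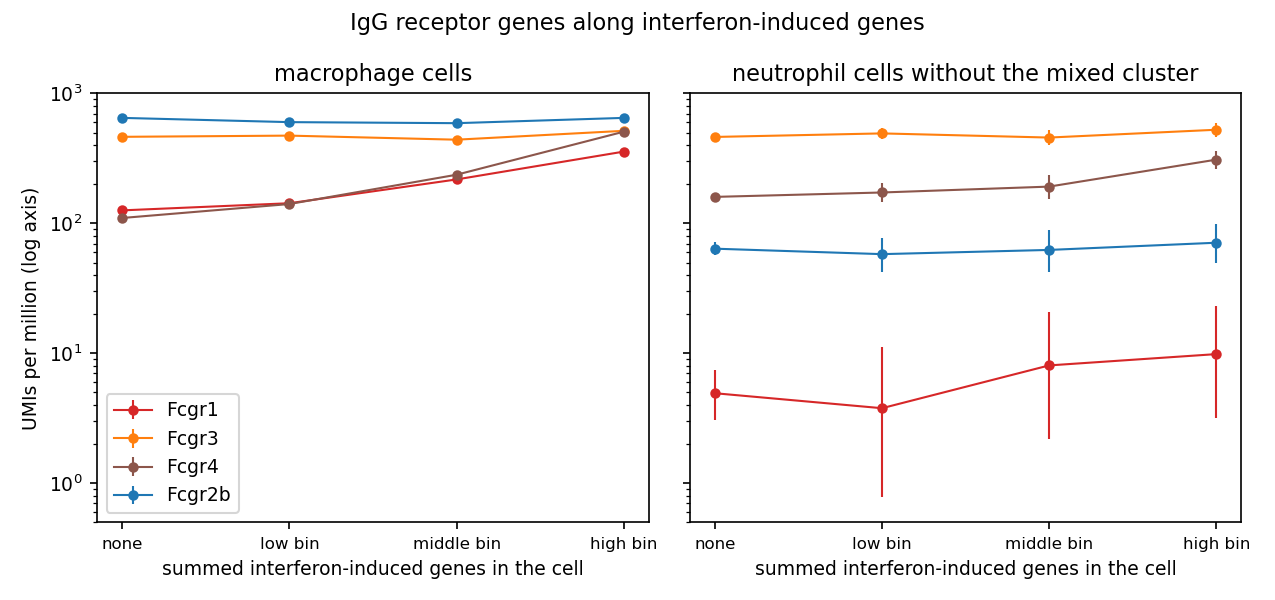
CPM (log axis, bars are 95% counting intervals) of Fcgr1, Fcgr3, Fcgr4 and Fcgr2b in macrophage cells (left) and neutrophil cells without the mixed cluster (right), by the summed level of 6 interferon-induced genes in the cell. Fcgr4 is highest in the high bin, at 508 CPM in macrophage cells and 309.6 CPM in neutrophil cells, and Fcgr1 reaches 357 CPM in that bin of macrophage cells.

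In macrophage cells Fcgr4 and Fcgr1 were higher along the interferon-induced genes, as was Fcer1g by a smaller factor, and Fcgr2b was not. The 250 bases before the starts of Fcgr4, Fcgr1 and Fcgr2b are shown, from the RefSeq promoter table (build GRCm38.p6), which held all 7 genes. The windows searched also held the 50 bases after the start. No source used here names the build of the deposited files, and these positions belong to the RefSeq table. The bases lie upstream of the annotated first exon, at chr1:171018676-171018925 on the plus strand for Fcgr4, chr3:96293970-96294219 on the minus strand for Fcgr1 and chr1:170976072-170976321 on the minus strand for Fcgr2b. Capitals mark matches, on either strand, to the gamma-activated site GAS (TTCNNNGAA), the core of the interferon-stimulated response element ISRE (GAAANNGAAA) or the core of the myeloid factor PU.1 (GAGGAA).
Fcgr4: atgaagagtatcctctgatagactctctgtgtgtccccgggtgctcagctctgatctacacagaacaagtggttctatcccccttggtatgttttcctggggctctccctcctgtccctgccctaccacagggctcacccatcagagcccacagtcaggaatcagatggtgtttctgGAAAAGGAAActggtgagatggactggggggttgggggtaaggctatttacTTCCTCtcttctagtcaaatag
Fcgr1: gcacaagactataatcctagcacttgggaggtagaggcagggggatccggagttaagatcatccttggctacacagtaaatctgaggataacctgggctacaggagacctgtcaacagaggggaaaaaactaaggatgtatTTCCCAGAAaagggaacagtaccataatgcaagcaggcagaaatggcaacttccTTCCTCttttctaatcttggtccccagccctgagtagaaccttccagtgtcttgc
Fcgr2b: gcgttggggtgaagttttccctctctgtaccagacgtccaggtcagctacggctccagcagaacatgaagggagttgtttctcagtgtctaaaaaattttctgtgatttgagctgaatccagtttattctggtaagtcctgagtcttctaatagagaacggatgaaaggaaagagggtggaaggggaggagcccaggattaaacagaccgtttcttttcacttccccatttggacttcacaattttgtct

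The Fcgr4 window held 1 ISRE core match, GAAAAGGAAA, starting at -73 from the transcription start, and 1 PU.1 match at -22. The Fcgr1 window held 1 GAS match, TTCCCAGAA, at -109 and 1 PU.1 match at -55. The Fcgr2b, Fcer1g and Fcgrt windows held none of the 3 motifs, and those of Fcgr3 and Fcrls held a PU.1 match only. Fcer1g thus had no match, though it too was higher along the interferon-induced genes. Whether the motifs bear on these levels was not tested. No motif matches overlapped. Of 32851 promoter windows of the same length, 3.44% held the ISRE core, 8.30% GAS and 28.3% the PU.1 core. A match of letters is not a shown binding site. In the RefSeq annotation Fcgr2b, Fcgr4 and Fcgr3 are consecutive protein-coding genes on chromosome 1, with Fcer1g further along, while Fcgr1 and Fcrls are on chromosome 3 and Fcgrt on chromosome 7.

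Among the 9 macrophage clusters other than the interferon cluster, Fcrls ranged from 4.69 to 117 CPM, Fcgrt from 46.5 to 441 CPM, Fcgr2b from 241 to 856 CPM and Fcgr4 from 51.6 to 183 CPM. Fcgr2b was highest in cluster 1, at 856 CPM, led by Mmp12, Mmp9, Ppbp and Arg1, and nearly as high in cluster 2, at 846 CPM, led by Ccl8, Cd163 and Gas6, and in cluster 6, at 792 CPM, led by Inhba, Il6 and Cxcl3. The ratio of activating to inhibitory UMIs was below 1 in these 3 clusters, at 0.903 (0.869 to 0.937), 0.987 (0.944 to 1.03) and 0.875 (0.832 to 0.919), although the interval of cluster 2 spanned 1. At the other end was cluster 7, led by Lpl, Cd36, Saa3, Cadm1 and Pparg. It had the lowest Fcgr2b, at 241 CPM, and also the lowest Fcgr4, at 51.6 CPM. Its ratio of 2.30 (2.08 to 2.55) was close to the 2.39 (2.26 to 2.52) of the interferon cluster. Fcgr2b was 755 CPM in the interferon cluster, so the 2 clusters reached a like ratio with unlike levels.

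Fcgrt was highest in cluster 2, at 441 CPM, 3.41-fold above the other macrophage cells (3.23 to 3.59), and lowest in cluster 6, at 46.5 CPM. Fcrls was highest in cluster 3, led by Adamdec1, Cx3cr1, Plxdc2 and Axl, at 117 CPM, 2.36-fold above the others (2.16 to 2.58), and lowest in cluster 6, with 20 UMIs at 4.69 CPM. Cluster 5 was monocyte-like, with Vcan, Plac8 and Chil3 leading, and had Fcgr1 at 261 CPM against 152 CPM in the other macrophage cells (1.72-fold; 1.59 to 1.85). In the same cluster Fcer1g was at 1842 CPM, Fcgr2b at 400.5 CPM and Fcrls at 18.9 CPM, and the ratio was 1.89 (1.76 to 2.02). The cycling cluster 8, led by Top2a and Birc5, had the lowest Fcgr3 and Fcer1g, at 297 and 1063 CPM. Cluster 4, led by Saa3, Cxcl5, Hmox1 and Lpl, was the shallowest, with a median of 2058 UMIs and a ratio of 1.30. Cluster 10 also carried G0s2 and S100a9 among its leading genes, with a median doublet score of 0.179 and a ratio of 1.25.

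**Figure D5:**
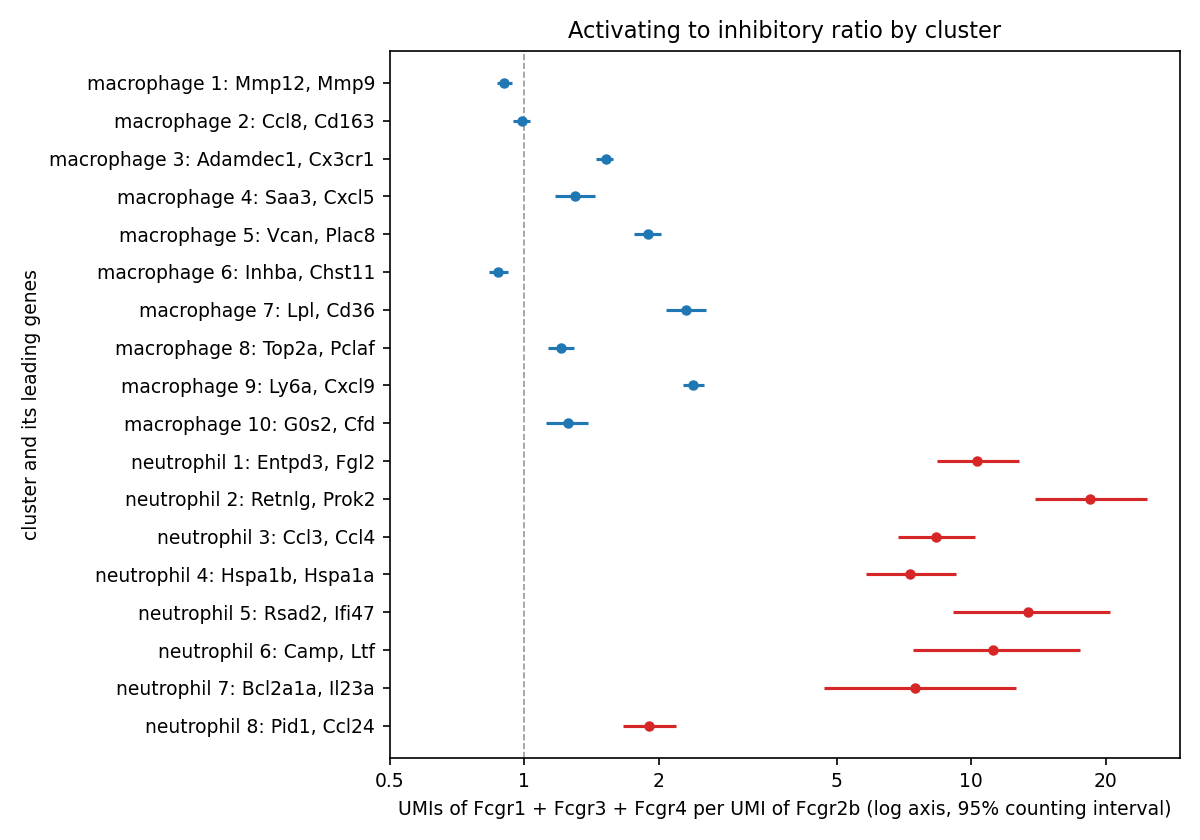
Ratio of activating (Fcgr1 plus Fcgr3 plus Fcgr4) to inhibitory (Fcgr2b) UMIs in each cluster of macrophage cells (blue, above) and neutrophil cells (red, below), on a log axis with 95% counting intervals. Macrophage clusters lie between 0.875 and 2.39, and neutrophil clusters between 7.28 and 18.4 apart from the mixed cluster at 1.90.

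Macrophage cells with at least 1000 UMIs were also divided into 4 bins of 1138 cells each by their summed C1q level, of which C1qa and C1qb are also in the class rule. Fcrls was at 8.19, 24.8, 71.0 and 115 CPM from the lowest to the highest bin, and Fcgrt at 66.4, 119, 189.5 and 261 CPM. The ratio of activating to inhibitory UMIs had no such order, at 1.32, 1.25, 1.11 and 1.33. Median depth was 6039.5, 6187, 8035 and 9995 UMIs along the bins.

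In neutrophils, 8 clusters had at least 50 cells, and 6 of the 7 genes varied at least 2-fold among them. Of the 6677 genes at or above the level of the lowest of the 7, with a UMI in every cluster, 94.9% did. For Fcgr1, Fcgr2b, Fcrls and Fcgrt the highest cluster was the mixed cluster. The fewest UMIs in a cluster were 3 for Fcgr1, 20 for Fcgr2b, 1 for Fcrls and 1 for Fcgrt. Fcgr3 was highest in cluster 4, led by Hspa1b, Hspa1a and Ero1a, at 684 CPM, and in cluster 3, led by Ccl3, Ccl4 and Cxcl3, at 663 CPM. These were 1.52-fold (1.39 to 1.67) and 1.51-fold (1.40 to 1.64) the level in the other neutrophil cells. Fcgr3 was lowest in cluster 6, led by Camp, Ltf and Ngp, granule genes of immature neutrophils, at 270.1 CPM (0.546-fold; 0.471 to 0.630), where Fcgr4 was also lowest, at 104 CPM. Fcgr2b was lowest in cluster 2, led by Retnlg, Prok2 and Mmp8, at 32.4 CPM (24.3 to 42.4). That cluster had the highest ratio of activating to inhibitory UMIs, 18.4 (13.9 to 24.7), and cluster 4 the lowest apart from the mixed cluster, 7.28 (5.80 to 9.23). In the mixed cluster 8, Fcgr1 was at 139 CPM, Fcgr2b at 397 CPM, Fcrls at 27.2 CPM and Fcgrt at 59.1 CPM, and the ratio was 1.90 (1.66 to 2.18).

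Among cells of the other classes and the cells matching no rule, 15 clusters were given values. The 1760 cells matching no rule had Fcgr3 at 212 CPM, Fcgr2b at 306 CPM and a ratio of 1.06. A cluster of 354 cells led by Ccl3 and Hcar2 had a ratio of 4.52 (3.39 to 6.11). The ratio was 5.59 (3.70 to 8.77) in 211 cells led by Hdc, Il1r2 and Csf3r. Both were below the neutrophil clusters apart from the mixed cluster, with intervals overlapping some of theirs. Clusters led by Mrc1 and Cd163 and by Osm and Ccl24 had ratios of 1.26 and 1.01. An osteoclast-like cluster of 195 cells, led by Acp5, Ctsk and Atp6v0d2, had Fcer1g at 619 CPM and Fcgr2b at 108 CPM. Its activating receptors were far lower, with Fcgr3 at 28.2 CPM, Fcgr4 at 16.7 CPM and Fcgr1 at 7.49 CPM, and its ratio was 0.484 (0.385 to 0.605). Oscar, an osteoclast receptor that signals through the Fcer1g chain, was at 68.3 CPM in this cluster and at no more than 2.14 CPM in any other. In a B cell-like cluster of 108 cells, led by Igkc, Ighm, Bank1 and Cd79a, Fcgr2b had 22 UMIs at 76.6 CPM (48.0 to 116) and the 3 activating genes had 5 UMIs together, a ratio of 0.227 (0.0672 to 0.615). Fcgr2b is the inhibitory Fc receptor of B cells.

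A cluster of 84 cells led by MHC class II genes and Ccl17 had Fcer1g at 868 CPM, Fcgr2b at 166 CPM and Fcgrt at 114 CPM, with a ratio of 0.929 (0.704 to 1.22). A cluster of 162 cells led by Mmp12, Mmp8, Chil3 and Nos2 had Fcgr2b at 847 CPM, as high as the top macrophage clusters, and a ratio of 0.751 (0.667 to 0.844). Its C1q level was 158 CPM, and 161 of its cells matched no class rule. Fcgrt was also at 113 CPM in an endothelial-like cluster of 81 cells led by Fabp4, Rgs5 and Cdh5, and at 158 CPM in the main fibroblast cluster. The other 6 genes were at or below 72.2 CPM in those 2 clusters.

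Across all 33 clusters, the genes whose log2(CPM + 1) followed each receptor most closely were named by Pearson's r among 11148 genes, with the 7 genes themselves left out of the ranking, as a description of clusters that share a library and differ in depth. Fcer1g went most closely with Tyrobp (r = 0.987), then Lrrc25 (0.960) and Slfn2 (0.954), and of the other 6 genes with Fcgr3 (0.950). Fcrls went with C1qc (0.921), C1qa (0.910) and C1qb (0.908), of which C1qa and C1qb are in the rule that made the macrophage class. Fcgr1 went with C3ar1 (0.945), Ms4a6c (0.939) and Aif1 (0.939), and Fcgr2b with Gm6377 (0.934), Ctss (0.930) and C3ar1 (0.911). Outside the 7 genes, Fcgr3 and Fcgr4 shared their closest genes, Dmxl2 (0.938 for Fcgr3 and 0.930 for Fcgr4) and Tlr13 (0.935 and 0.923), followed by Cd300c2 for Fcgr3 (0.929) and Lrrc25 for Fcgr4 (0.922). Fcgrt had r of 0.020 with Fcgr3, -0.002 with Fcgr4 and -0.048 with Fcer1g, but 0.623 with Fcgr1, its highest among the other 6. Its closest genes were Nacc2 (0.892), Plxnb2 (0.879) and Slc39a1 (0.878).

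The wider pathway list held 80 genes, of which 79 were found and 61 had enough UMIs to compare macrophage with neutrophil cells. Of the 61, 25 were at least 2-fold higher in macrophage cells, 12 at least 2-fold lower and 24 in between, beside the 53.2% and 11.3% of all genes given above. Without the mixed cluster 28 were higher, 13 lower and 20 in between, beside 56.5% and 11.5% of all genes, and the 4 that crossed a 2-fold limit were Plcg2 (2.27-fold), Cbl (2.18-fold), Clec12a (2.07-fold) and Ptprc (0.490). Of 25 genes that signal below activating receptors, 7 were higher, 4 lower and 14 in between. The adaptor genes Blnk and Lat2 were at 36.6 and 125 CPM in macrophage cells and at 4.25 and 16.7 CPM in neutrophil cells, 8.62-fold and 7.45-fold higher, or 24.5-fold and 13.2-fold without the mixed cluster. Fgr, a kinase of the Src family, was lower in macrophage cells, at 38.8 CPM, against 217 CPM in neutrophil cells (0.179-fold). The next list held 9 genes taken as inhibitory: phosphatases, a kinase, adaptors and the ubiquitin ligase gene Cblb. Of these, 5 were higher in macrophage cells, led by Inppl1 (6.70-fold) and Cblb (5.21-fold, or 22.4-fold without the mixed cluster), and 0 were lower. The lowest ratios among them were those of Ptprc (0.504) and of Inpp5d (0.742; 298 CPM in macrophage cells and 402 CPM in neutrophil cells), the phosphatase that Fcgr2b recruits.

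Other receptors that signal through the Fcer1g chain were split, with 2 of 5 higher in macrophage cells and 3 lower. Of all genes, 53.2% were higher and 11.3% lower. Clec4e and Clec4d, receptors for mycobacterial and fungal glycolipids, were at 229 and 322 CPM in macrophage cells and at 2307 and 1291 CPM in neutrophil cells (0.0992-fold and 0.249-fold), while Clec4n was 3.60-fold higher in macrophage cells. Oscar was 5.18-fold higher, from 51 and 2 UMIs. Among 7 inhibitory paired receptors, 1 was higher in macrophage cells (2 without the mixed cluster) and 3 lower. Sirpa, the receptor for the Cd47 signal that restrains phagocytosis, was at 415 CPM in macrophage cells and 196 CPM in neutrophil cells (2.11-fold), and Clec12a was 1.92-fold. Siglece and Lilrb4a were lower in macrophage cells, at 0.105 and 0.258 times the neutrophil level.

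Of 5 other Fc receptor and antibody-binding genes compared, 4 were higher in macrophage cells and 1 lower. For this list and the next, the share of all genes was 53.2% higher and 11.3% lower. Fcrlb was 12.2-fold higher (4.12 to 59.9), from 181 UMIs in macrophage cells and 3 in neutrophil cells, of which 2 lay in the mixed cluster, Fcrla was 3.02-fold and B2m, the partner of Fcgrt, 2.16-fold higher. Fcrl1 was lower in macrophage cells, at 0.242 times. Of 8 genes of complement and its receptors, 5 were higher, with C1qc and C1qb at 14.1-fold and 13.9-fold (33.4-fold and 25.5-fold without the mixed cluster), and C1qb is in the rule that made the class. C5ar1, a receptor for the complement fragment C5a, was lower in macrophage cells, at 303 CPM, against 829 CPM in neutrophil cells (0.366-fold), and Itgam was 0.507-fold.

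The antibody chains themselves were scarce in myeloid cells. Ighm was at 11.9 CPM in macrophage cells and 2.26 CPM in neutrophil cells (5.28-fold, or 11.4-fold without the mixed cluster), and Igkc at 3.86 CPM in macrophage cells and 7.17 CPM in neutrophil cells (0.538-fold). Ighg1 had 8 UMIs in all macrophage cells and 0 in neutrophil cells. The B cell-like cluster held 265 Ighg1 and 7111 Igkc UMIs, at 923 and 24774 CPM.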

How the data were processed

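Single-cell RNA of a treated 4T1 tumour sample was analysed. The authors deposited a matrix of UMI counts that were not normalized, written by Cell Ranger 8.0.1 per the file headers. Libraries were of the Chromium Single Cell 3′ v3 kind per the labels' protocols, and the submitters' processing notes name Cell Ranger and STAR. Neither a genome build nor a gene annotation nor the authors' filter on cells is given in the sources used here. A deposited cell list names the library of each kept cell. The matrix of 12309 barcodes was taken as the treated library because it held all 10835 barcodes listed as experimental and only 37 of the 11643 control barcodes, 33 of which were listed for both.

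The 7 members and all gene lists were chosen with earlier results of these data known. Classes were set by the first match in the order neutrophil (S100a8, S100a9, Csf3r and G0s2 at 2% or more of a cell's UMIs), fibroblast (Col1a2, Col3a1 and Dcn, 0.5%), tumour (Krt8, Krt18, Krt7 and Epcam, 0.1%), T/NK (Cd3e, Cd3g, Trbc2 and Ncr1, 0.1%) and macrophage (C1qa, C1qb, Csf1r, Apoe and Lyz2, 0.3%). Near the macrophage limit, 440 macrophage cells lay below 1.5 times it and 547 unmatched cells at 0.5 times it or more. UMIs were summed per class, with exact Poisson, binomial and conditional ratio intervals. Clusters were made within each class group with leidenalg 0.10.2 (2000 variable genes, 30 principal components, 15 neighbours, resolution 0.6). Scrublet, run in scanpy 1.11.5, marked 0 of the 10835 cells and was taken as not having worked, so no cell was removed as a doublet. Its scores are given as values and choose the cells left out in 1 alternative. Free RNA was not subtracted.

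Named genes were the members, the 2 genes with the largest ratio in each direction of each pathway sub-list, and for each member the 3 genes closest to it over clusters. A few listed items are not reported here. Cluster leading genes, Tyrobp in T/NK cells, Oscar by cluster, B2m and Ighg1 were named after their values were seen. The ratio step was tested on simulated counts. Alternatives changed the cells used, the weight of a cell, the class rule, doublets, thinning, the genes summed and the clustering resolution.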

Additional observations from a re-analysis of the deposited data

Results flagged for a closer look

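The authors left 1474 barcodes out of their cell list, and 459 of these meet the macrophage rule, at a median of 22418 UMIs. They are singled out because they carry the receptors in data no comparison above uses. Fcgr1 was at 124 CPM in them, Fcgr3 at 394 CPM, Fcgr4 at 122 CPM, Fcer1g at 1241 CPM, Fcgr2b at 446 CPM, Fcrls at 58.0 CPM and Fcgrt at 126 CPM. Each is below its level in the kept macrophage cells, though for Fcrls the intervals overlap (53.2 to 63.2 CPM left out and 58.7 to 63.8 CPM kept). The activating to inhibitory ratio was 1.43 (1.38 to 1.49) in the left-out barcodes and 1.25 in the kept macrophage cells. The left-out barcodes are also deeper, with a median above the 19966 UMIs of the deepest kept macrophage cell. The part of depth in these values was not tested. A further 53 left-out barcodes meet the neutrophil rule, at a median of 736.00 UMIs. Fcgr1 was at 28.8 CPM in them, Fcgr3 at 274 CPM, Fcgr4 at 72.0 CPM, Fcer1g at 1019 CPM, Fcgr2b at 277 CPM, Fcrls at 14.4 CPM and Fcgrt at 43.2 CPM, from 4 UMIs for Fcrls and 8 for Fcgr1. Their activating to inhibitory ratio was 1.35 (0.996 to 1.84), against 6.60 in the kept neutrophil cells. The C1q genes summed to 2159.8 CPM in these left-out barcodes and 383 CPM in the kept neutrophil cells, and the part of macrophage RNA in their ratio was not tested.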

How the results depend on the processing

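The count of 4 genes at least 2-fold higher in macrophage cells was found under all 8 alternatives, and none of the 56 recomputed ratios of single genes changed the direction of a gene past 2-fold. The log2 ratio ranged from 2.43 to 4.83 for Fcgr1, from 2.30 to 3.31 for Fcgr2b, from 2.83 to 4.51 for Fcrls and from 2.85 to 4.62 for Fcgrt. It stayed between -0.19 and 0.04 for Fcgr3 and Fcgr4 and between -0.58 and -0.47 for Fcer1g. The macrophage activating to inhibitory ratio moved to 1.28 over all barcodes of the matrix and stayed between 1.24 and 1.25 under the alternatives that changed the kept cells, the weights, the class rule or the doublets. The neutrophil ratio moved further, and the cause was not tested. It was 8.96 as a mean over cells, 8.64 with cells of a single class rule only, 8.79 with the share limits doubled, 5.23 with the limits halved, 9.65 without the 5% of cells with the highest doublet scores and 10.3 without the mixed cluster, a setting chosen after seeing the data. Under each of these it was above the macrophage ratio. With Fcgr1, Fcgr3 or Fcgr4 alone over Fcgr2b, the ratio was 0.254, 0.736 and 0.264 in macrophage cells and 0.204, 4.66 and 1.73 in neutrophil cells, so for Fcgr1 alone the macrophage value is the higher. At resolution 1.2 the highest macrophage cluster had Fcgr4 at 787 CPM and Fcgr1 at 430.3 CPM, while the ratio of highest to lowest macrophage cluster moved by over 1.5 times, to 54.0 for Fcrls, 26.1 for Fcgr4 and 6.30 for Fcgr1, and that of neutrophil clusters to 33.0 for Fcrls. No paired analysis was possible because a single library was analysed. The levels come from 1 library, so variation between animals is unknown, and in neutrophil cells a few UMIs per cluster limit Fcgr1, Fcrls and Fcgrt.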
